A study of Mus musculus with 12 samples.

Results

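The β-defensin genes of the mouse were followed across testes and across ovaries with and without Foxl2, the forkhead transcription factor of granulosa cells. The rule for members uses the gene's name and no measured value, taking each annotated symbol that is Defb followed by a number. They made up 39 of 19938 genes on the adult arrays and 20 of 18194 genes on the arrays of postnatal day 3 (P3), 41 genes in all, of which 18 were on both. Each gene is represented by the probe set with the highest mean over the arrays of its table. A probe set listed with both Defb35 and Defb12 and another listed with both Defb42 and 2700070H01Rik were not used, and pseudogenes such as Defb44-ps fell outside the rule.

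RNA of whole organs was hybridised to arrays. The 3 adult groups, all at 8 weeks and 1 animal per array, were ovaries labelled Foxl2 flox/flox x CreEBD (Foxl2 mutant, n = 3), wild-type testes (n = 3) and wild-type ovaries (n = 2). The 2 groups at P3 were Foxl2 KO ovaries (n = 2) and wild-type ovaries (n = 2), each array holding RNA pooled from more than 10 females. The labels name neither the promoter that drives the Cre nor the time of deletion, and they do not say whether wild-type animals carried a floxed allele or a Cre. Foxl2 itself stood at 5.81, 6.04 and 5.73 on the log2 scale of the adult arrays in mutant ovaries, against 8.75 and 8.81 in wild-type ovaries. At P3 its MAS5 signal, a linear intensity, was 186.4 and 153.7 in KO pools, against 814.5 and 829.9 in wild-type pools. The level of Xist, transcribed from the inactive X chromosome, was 7.76 to 8.88 on the 5 adult ovary arrays, against 3.20 to 3.40 on the 3 testis arrays.

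β-Defensins are small, cationic, secreted peptides folded around cysteine bridges. Epithelia release them against microbes, and in mammals many family members are made in the male reproductive tract, above all in the epididymis, where some coat maturing sperm. In the mouse testis Defb19 is known from Sertoli cells, the somatic cells that nurse germ cells, whereas Defb1, Defb3, Defb4 and Defb14 are best known from epithelia such as kidney, airway and skin. The whole-organ RNA measured here cannot tell fewer cells of a type from less RNA per cell.

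In the RefSeq table of assembly GRCm38.p6 the 41 genes lie on 4 chromosomes, 11 on chromosome 2, 23 on chromosome 8, 5 on chromosome 14 and 2 on chromosome 1. The members on chromosome 8 have 41 other protein-coding genes between them, and those on chromosomes 1, 2 and 14 have 0. On chromosome 2 the order was Defb23, Defb20, Defb22, Defb26, Defb28, Defb29, Defb21, Defb19, Defb45, Defb36 and Defb25. Defb21 and Defb45 are thus the direct neighbours of Defb19, and Defb45 and Defb25 those of Defb36.

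RefSeq start-site windows of the same assembly, each from 250 bases before to 50 bases after the annotated start, were matched for 29 of the 41 members, and Defb19 is not among them. The windows of Defb36, which was higher in mutant ovaries and testes, and of Defb33 and Defb11, which were higher in testes, are shown as the matched members with the largest adult differences. Capitals mark any match to the 6 motifs searched on both strands.
Defb36 (chr2:152604077-152604376, plus strand): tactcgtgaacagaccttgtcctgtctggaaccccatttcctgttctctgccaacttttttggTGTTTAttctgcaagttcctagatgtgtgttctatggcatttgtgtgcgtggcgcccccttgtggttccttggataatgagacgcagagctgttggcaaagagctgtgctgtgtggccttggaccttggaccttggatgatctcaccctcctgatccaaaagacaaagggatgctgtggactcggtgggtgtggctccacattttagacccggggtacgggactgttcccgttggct
Defb33 (chr8:20892417-20892716, plus strand): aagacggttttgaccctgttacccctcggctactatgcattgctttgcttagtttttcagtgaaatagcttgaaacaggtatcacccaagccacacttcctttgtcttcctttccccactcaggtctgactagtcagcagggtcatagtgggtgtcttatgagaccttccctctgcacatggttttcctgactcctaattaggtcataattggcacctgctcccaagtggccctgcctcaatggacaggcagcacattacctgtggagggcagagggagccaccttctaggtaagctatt
Defb11 (chr8:21906383-21906682, minus strand): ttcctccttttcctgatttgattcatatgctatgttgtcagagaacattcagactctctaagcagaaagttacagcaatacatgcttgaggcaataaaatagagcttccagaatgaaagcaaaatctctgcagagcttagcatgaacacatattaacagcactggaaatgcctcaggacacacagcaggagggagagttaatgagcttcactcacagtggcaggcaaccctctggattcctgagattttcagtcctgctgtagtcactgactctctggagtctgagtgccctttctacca
Defb36 held 1 match, to the forkhead motif on the opposite strand, 187 bases before the start, and the windows of Defb33 and Defb11 held 0. The forkhead motif was searched as TAAACA, which 13.4% of all 32851 windows of this length held and 5 of the 30 windows of members (Defb6, Defb36, Defb38, Defb39 and Defb41). The motif of SOX factors was searched as AACAAT, held by 10.7% of all windows and 1 of the members' windows. The motif of GATA factors was searched as AGATAA, held by 11.2% of all windows and 5 of the members'. The motif of NR5A receptors was searched as AAGGTCA, held by 4.72% of all windows and 4 of the members'. The motif of DMRT factors was searched as ACANTGT, which reads the same on both strands and was held by 7.54% of all windows and 7 of the members'. The promoter box was searched as TATAAA, held by 13.6% of all windows and 5 of the members'. The forkhead motif can overlap the SOX motif, and the SOX motif the DMRT motif. These matches are descriptions of the letters, not of binding.

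Defb19 and Defb36 stood apart from the other members on the adult arrays. Members were separated by their mean over all 8 arrays, taken against 4.88, the mean of the array medians (4.83 to 4.94). Only Defb19 and Defb36 were above it, with means of 8.30 and 7.68, and the other 37 members lay below and are called the low end of the scale. Defb25 was just under the line at 4.86. Levels of different probe sets have no common scale, so this split is a description of where each gene lies on its array. It follows that 2 of the 39 members would pass a filter on low values.

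**Figure D1:**
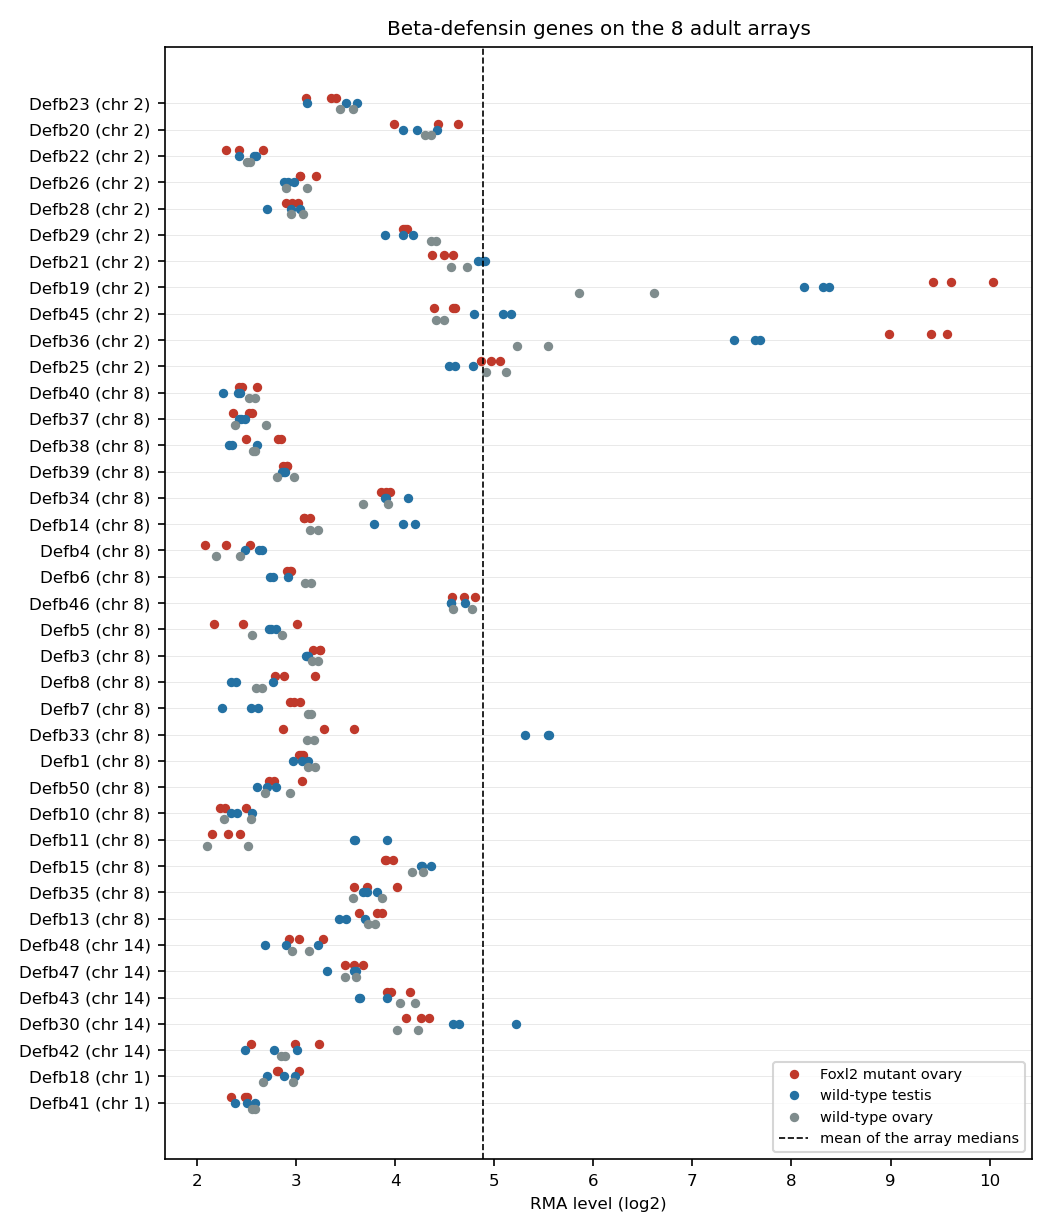
RMA level (log2, horizontal axis) of the 39 β-defensin genes on each of the 8 adult arrays, 1 point per array, in chromosomal order, with the mean of the array medians as a dashed line. Defb19 and Defb36 lie to the right of the line on all 8 arrays, Defb33 on the 3 testis arrays only, and most other members between 2 and 5 on every array.

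The comparison of mutant with wild-type ovaries asked what differed at 8 weeks where Foxl2 had been deleted. Defb19 had levels of 9.61, 9.43 and 10.03 in mutant ovaries, against 6.61 and 5.86 in wild-type ovaries. The groups did not overlap, and the lowest mutant ovary lay well above the higher wild-type ovary. Defb19 rose by 3.45 ± 0.23 (SE of the limma fit, n = 3 and 2, adjusted p = 4.86e-06), which is 11.0-fold. Defb36 had levels of 9.41, 8.98 and 9.57 in mutant ovaries, against 5.23 and 5.54 in wild-type ovaries. It rose by 3.94 ± 0.18 (n = 3 and 2, limma adjusted p = 5.08e-07), which is 15.3-fold, again without overlap. The wild-type ovaries ran in opposite order for these genes, wild-type ovary 1 being higher by 0.75 for Defb19 and lower at -0.31 for Defb36, beside a median absolute difference of 0.21 over all genes. Other genes also set these ovaries apart. The oocyte list averaged 7.0 to 7.20 in mutant ovaries, against 5.72 to 7.40 in wild-type ovaries, and its gene Zp2, of the egg coat, was at 8.47 in wild-type ovary 1 and 6.20 in wild-type ovary 2. The Sertoli cell list genes Amh (9.05 and 6.03) and Aard (7.04 and 4.47) were also higher in wild-type ovary 1. Their part in the result was not tested. With wild-type ovary 1 left out Defb19 rose by 3.83 and Defb36 by 3.78, and leaving out the second instead gave 3.08 for Defb19 and 4.09 for Defb36.

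These were the only members past the threshold (an adjusted p below 0.05, by Benjamini-Hochberg across the whole table). They are 2 of 39 members, or 5.13%, where 16.2% of all genes passed in either direction, 9.55% as higher and 6.66% as lower. The share of members that passed was thus below that of all genes. The remaining 37 members had differences between -0.30 (Defb15) and 0.32 (Defb8), with a median of -0.01 beside -0.02 for all genes. All 37 differed by less than 0.5 on the log2 scale, as did 81.6% of all genes. An unadjusted p under 0.05 was reached by 4 members, where 28.9% of all genes reached it, and with a 2-fold difference required the same 2 passed, where 5.61% of all genes did.

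On chromosome 2 Defb19 and Defb36 rose, and the gene between them did not pass. Defb45 had levels of 4.61, 4.39 and 4.59 in mutant ovaries, against 4.49 and 4.41 in wild-type ovaries. The groups overlapped, and its difference was 0.08, with a 95% interval from -0.25 to 0.41. Defb21, on the other side of Defb19, differed by -0.17 (interval -0.45 to 0.11), and Defb25, beyond Defb36, by -0.05 (interval -0.36 to 0.25). Of the 11 members on chromosome 2, 2 rose and 9 did not pass. That is 18.2% passed, close to the 16.2% of all genes, so the counts set no chromosome apart. None of the 21 measured members on chromosome 8, the 5 on chromosome 14 or the 2 on chromosome 1 passed, and 1 of these 28 had an unadjusted p under 0.05, namely Defb15.

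Several low-end members did not overlap between mutant and wild-type ovaries without passing the test. Besides Defb19 and Defb36, the mutant ovaries lay wholly above the wild-type ovaries for 1 member, Defb8, and wholly below for 7, namely Defb1, Defb6, Defb7, Defb15, Defb23, Defb29 and Defb41. Of all genes 19.3% lay wholly above and 20.6% wholly below. Defb15, a defensin of the rodent epididymis, gave 3.98, 3.90 and 3.91 in mutant ovaries, against 4.17 and 4.28 in wild-type ovaries. Its difference of -0.30 ± 0.11 had an adjusted p of 0.112 in limma.

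Markers of Sertoli cells were read in the same comparison. They were chosen with earlier results of these data known, so their counts are a description only. Of 14 measured Sertoli cell genes other than defensins 11 rose and 0 fell in mutant ovaries, where 9.55% of all genes rose and 6.66% fell. The median of these 14 genes was 2.58, and Amh, Ptgds and Fgf9 did not pass. The mean level of this list was 8.69 to 8.88 in mutant ovaries, 7.08 to 7.15 in testes and 5.97 to 6.49 in wild-type ovaries, and its sum was 121.7 to 124.3, 99.1 to 100.1 and 83.6 to 90.9 in the same order. In mutant ovaries 0 of the 14 genes had a mean below the array medians, against 1 in testes and 2 in wild-type ovaries. Of 11 epididymis markers 2 rose in mutant ovaries, Cst12 by 4.36 ± 0.17 and Cst11 by 0.59 ± 0.14, and the other 9 did not pass. The luminal epididymis genes Adam7 (2.50 to 2.76), Lcn8 (3.17 to 3.43) and Rnase9 (2.43 to 2.74) lay at the low end in mutant ovaries, and 9 of the 11 markers had means below the array medians. The part of these cell types in the result was not tested.

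Testes were set against wild-type ovaries to read the members in the normal male and female gonad. Defb19 had levels of 8.13, 8.32 and 8.38 in testes, against 6.61 and 5.86 in wild-type ovaries, a difference of 2.04 ± 0.23 (n = 3 and 2, limma adjusted p = 1.65e-05). Defb36 had levels of 7.42, 7.68 and 7.63 in testes, against 5.23 and 5.54 in wild-type ovaries, a difference of 2.20 ± 0.18 (limma adjusted p = 1.73e-06). Both genes were higher in every testis than in either wild-type ovary, by 4.12-fold and 4.58-fold.

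A further 5 members were higher in testis, and none of the 5 passed between mutant and wild-type ovaries. Defb33 had levels of 5.55, 5.54 and 5.31 in testes, against 3.18 and 3.11 in wild-type ovaries. It was higher by 2.32 ± 0.19 (limma adjusted p = 1.63e-06), or 4.99-fold. In mutant ovaries Defb33 had levels of 3.59, 3.28 and 2.87, with a difference from wild-type ovaries of 0.10 (95% interval -0.32 to 0.53). Defb11 had levels of 3.59, 3.60 and 3.92 in testes, against 2.52 and 2.10 in wild-type ovaries, and was higher by 1.39 ± 0.15 (limma adjusted p = 1.68e-05). Every testis again lay above every ovary, although all 8 values were below the array medians.

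Smaller excesses of testis were those of Defb14, Defb30 and Defb45. Defb14, a mouse defensin of skin and mucosa, had levels of 3.79, 4.20 and 4.08 in testes, against 3.14 and 3.22 in wild-type ovaries (0.84 ± 0.13, limma adjusted p = 2.42e-04). Defb30, of the chromosome 14 group, had levels of 5.22, 4.59 and 4.65 in testes, against 4.02 and 4.23 in wild-type ovaries (0.70 ± 0.19, limma adjusted p = 0.00879). It missed the threshold without wild-type ovary 1, at 0.59 (limma adjusted p = 0.0532). Defb45, between Defb19 and Defb36, had levels of 5.17, 4.80 and 5.09 in testes, against 4.49 and 4.41 in wild-type ovaries (0.56 ± 0.15, limma adjusted p = 0.00708). In none of these 3 genes did testes and wild-type ovaries overlap.

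In the other direction 5 members were lower in testis, all at the low end and all by less than 1 on the log2 scale. Defb7 had levels of 2.55, 2.62 and 2.25 in testes, against 3.12 and 3.15 in wild-type ovaries, and was lower at -0.66 ± 0.12 (limma adjusted p = 6.29e-04). Defb43 had levels of 3.64, 3.92 and 3.65 in testes, against 4.20 and 4.05 in wild-type ovaries (-0.39 ± 0.14, limma adjusted p = 0.032). Defb25 had levels of 4.61, 4.79 and 4.54 in testes, against 4.92 and 5.12 in wild-type ovaries (-0.37 ± 0.14, limma adjusted p = 0.0408). In all 3 genes every testis lay below both wild-type ovaries. Defb29 had levels of 4.08, 3.90 and 4.18 in testes, against 4.36 and 4.41 in wild-type ovaries (-0.33 ± 0.12, limma adjusted p = 0.0387). Defb6 had levels of 2.92, 2.77 and 2.74 in testes, against 3.15 and 3.09 in wild-type ovaries (-0.31 ± 0.10, limma adjusted p = 0.0187). These groups did not overlap either. Each of the calls of Defb43, Defb25, Defb29 and Defb6 ended when single arrays were left out of the fit. Defb43 missed the threshold without testis 1 (-0.34), testis 3 (-0.34) or wild-type ovary 1 (-0.31), and Defb6 without testis 2 (-0.29), testis 3 (-0.28) or wild-type ovary 1 (-0.28). Defb25 missed it without testis 1 (-0.35), testis 3 (-0.32), wild-type ovary 2 (-0.27), and without mutant ovary 1 (-0.37). Defb29 missed it without testis 1 (-0.34), testis 2 (-0.26), either wild-type ovary (-0.36 without the first, -0.30 without the second), or without mutant ovary 1 (-0.33) or 3 (-0.33).

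In all 12 of 39 members passed between testis and wild-type ovary, 7 higher and 5 lower, or 30.8%, where 60.3% of all genes passed. Of all genes 24.4% were called higher and 35.9% lower. The members' median was -0.08 beside -0.15 for all genes, and 31 of the 39 differed by less than 0.5. With a 2-fold difference also required, 4 members passed, namely Defb11, Defb19, Defb33 and Defb36, where 34.7% of all genes did. Testes lay wholly above wild-type ovaries in 9 members and wholly below in 9, where 28.5% and 45.4% of all genes did. An unadjusted p under 0.05 was reached by the same 12 members, where 63.6% of all genes reached it.

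**Figure D2:**
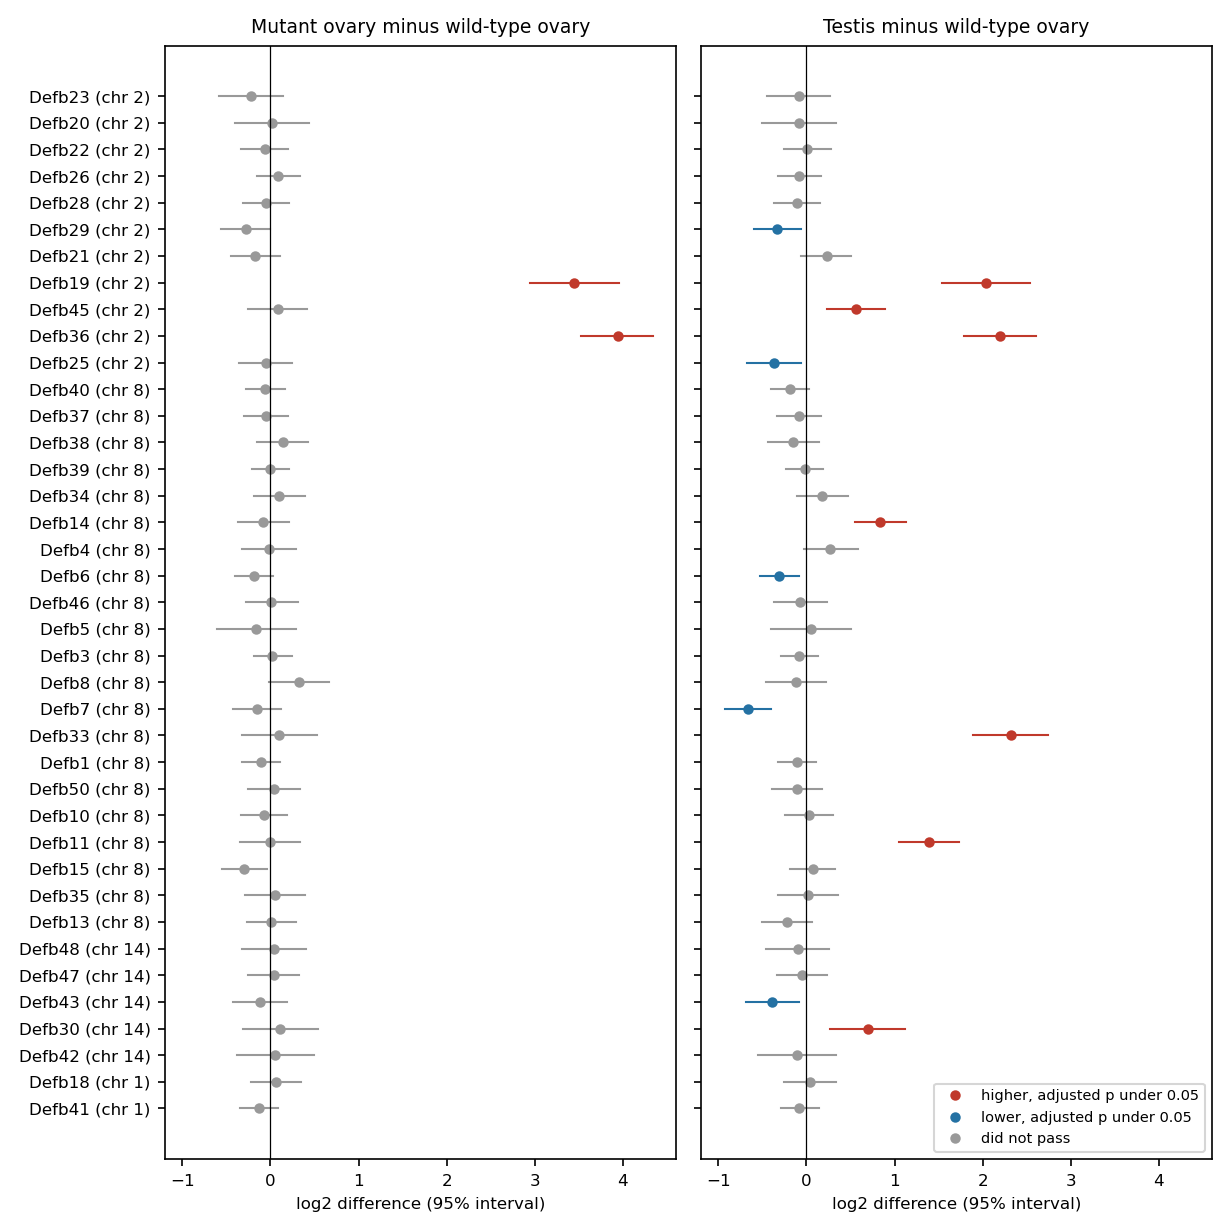
Difference in RMA level (log2) with its 95% interval for the 39 β-defensin genes in chromosomal order, for mutant ovary minus wild-type ovary on the left and testis minus wild-type ovary on the right, on the same scale. On the left only Defb19 (3.45) and Defb36 (3.94) leave the zero line by more than 0.5, and on the right Defb33 (2.32) and Defb11 (1.39) join them above 1.

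Cell type markers were read in the comparison of testis with wild-type ovary too. All 10 spermatid genes were higher in testis, with a mean level of 10.78 to 10.90 in testes, against 3.86 to 3.88 in wild-type ovaries, and a sum of 107.8 to 109.0 against 38.6 to 38.8. In mutant ovaries their mean level was 3.72 to 3.82, and all 10 genes had means below the array medians there, as in wild-type ovaries. Of 14 Sertoli cell genes 8 were higher and 4 lower in testis than in wild-type ovary, where 24.4% of all genes were higher and 35.9% lower. The median of these 14 genes was 0.87. Of 11 epididymis markers 2 were higher in testis, Cst12 by 1.81 ± 0.17 and Rnase10 by 0.48 ± 0.12, and 2 were lower, and the list's mean level was 3.71 to 3.80 in testes, against 3.69 to 3.71 in wild-type ovaries, with sums of 40.8 to 41.8 against 40.6 to 40.8. Of these 11 markers 10 had means below the array medians in testes and 10 in wild-type ovaries. The part of these cell types in the testis values of the members was not tested.

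Set directly against testis, the mutant ovaries were higher in Defb19 and Defb36. They were lower in the other members that were higher in testis than in wild-type ovary. Defb19 had levels of 9.61, 9.43 and 10.03 in mutant ovaries, against 8.13, 8.32 and 8.38 in testes, an excess of 1.41 ± 0.20 (n = 3 and 3, limma adjusted p = 1.03e-04). Defb36 had levels of 9.41, 8.98 and 9.57 in mutant ovaries, against 7.42, 7.68 and 7.63 in testes, an excess of 1.74 ± 0.16 (limma adjusted p = 3.70e-06). The groups overlapped in neither gene. The order of levels for both genes was thus mutant ovary, testis and wild-type ovary, and every neighbour in that order differed beyond the spread of the fit.

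Defb33 lay at -2.22 ± 0.17 in mutant ovary relative to testis (limma adjusted p = 7.71e-07), Defb11 at -1.40 ± 0.14, Defb14 at -0.92 ± 0.12, Defb30 at -0.58 ± 0.17 and Defb45 at -0.49 ± 0.13. For these 5 genes the 95% intervals of mutant minus wild-type ovary all held 0 and reached at most 0.54 above it. Defb21 had levels of 4.37, 4.59 and 4.49 in mutant ovaries, against 4.91, 4.89 and 4.84 in testes (-0.40 ± 0.11, limma adjusted p = 0.0107). Defb15 had levels of 3.98, 3.90 and 3.91 in mutant ovaries, against 4.36, 4.27 and 4.26 in testes (-0.37 ± 0.10, limma adjusted p = 0.00942). Both were thus lower in every mutant ovary than in any testis. Defb8 had levels of 2.88, 2.79 and 3.19 in mutant ovaries, against 2.35, 2.77 and 2.40 in testes (0.45 ± 0.14, limma adjusted p = 0.0152). Defb7 was higher by 0.51 ± 0.11 and Defb25 by 0.31 ± 0.12. These 3 genes did not overlap between the groups. Defb8 missed the threshold without testis 1 (0.37), testis 3 (0.39) or mutant ovary 3 (0.33), and Defb25 without testis 1 (0.30), testis 3 (0.26), mutant ovary 1 (0.31) or mutant ovary 3 (0.26).

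Between mutant ovary and testis 5 members were higher and 7 lower, 30.8% of the 39, where 61.8% of all genes passed, 37.5% as higher and 24.3% as lower. The median of the members was 0.05 and that of all genes 0.14. With a 2-fold difference also required, 4 members passed, where 36% of all genes did. Mutant ovaries lay wholly above testes in 7 members and wholly below in 7, where 42.8% and 26.7% of all genes did. An unadjusted p under 0.05 was reached by 14 members, the 12 called ones with Defb4 and Defb38, where 64.4% of all genes reached it. In the same comparison 13 of 14 Sertoli cell genes were higher and 1 lower (median 2.03), 10 of 11 granulosa cell genes were higher, all 10 spermatid genes were lower (median -6.95), and of 11 epididymis markers 4 were higher and 1 lower. Their part in the members' values was not tested. The 3 adult comparisons share their arrays pairwise, the wild-type ovaries serving in both comparisons against wild-type ovary, so their values are not independent.

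**Figure D3:**
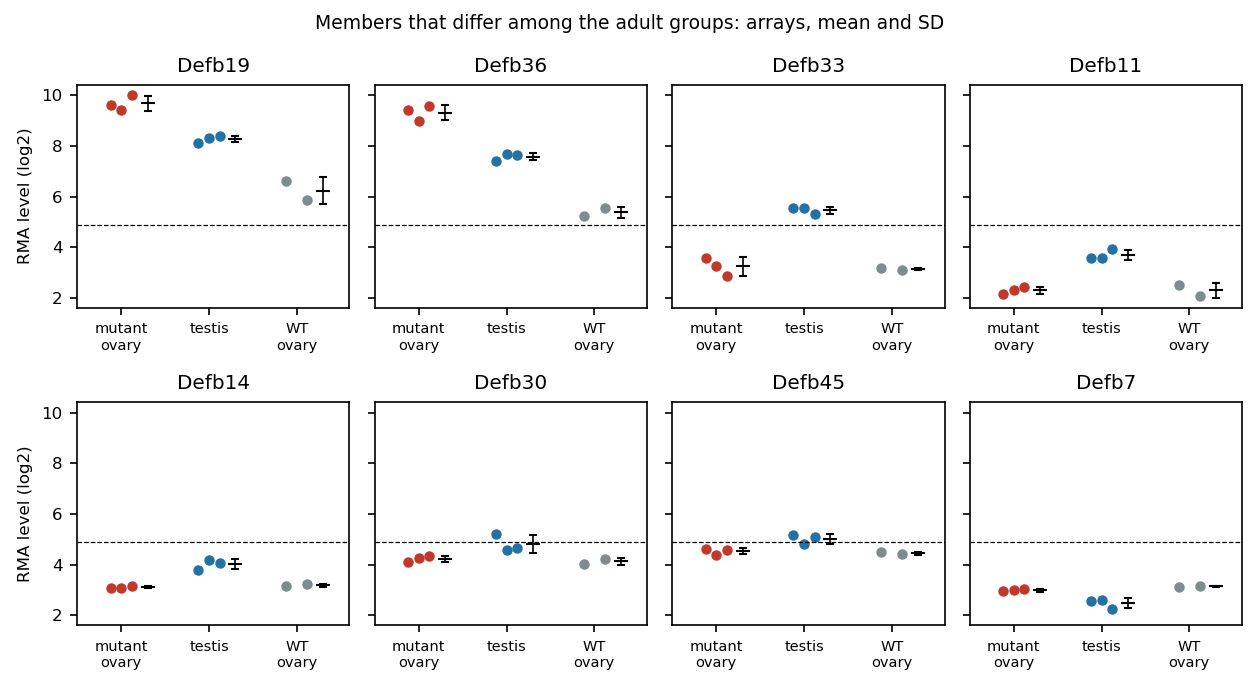
RMA level (log2) on each adult array for 8 members, 1 point per array, with the mean and SD of each group beside the points (n = 3 mutant ovaries, 3 testes and 2 wild-type ovaries) and the mean of the array medians as a dashed line. Defb19 and Defb36 fall in the order mutant ovary, testis and wild-type ovary. Defb33, Defb11, Defb14, Defb30 and Defb45 are higher in testis than in both ovary groups, and Defb7 is lower there. Defb7, Defb11 and Defb14 lie below the dashed line on every array.

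The remaining 24 of the 37 low-end members passed in none of the 3 adult comparisons. They include the epithelial defensins Defb1, Defb3 and Defb4 and the epididymal Defb41 and Defb42. Their values on single arrays ranged from 2.08 (Defb4) to 4.81 (Defb46), all below the mean of the array medians. Their fitted differences ran from -0.29 (Defb4) to 0.29 (Defb38), both between mutant ovary and testis, and neither passed, at limma adjusted p values of 0.0649 and, rounded, 0.05. Within the low end, single arrays above the mean of the array medians were those of Defb33 in 3 testes, Defb45 in 2 testes, Defb21 in 2 testes, Defb30 in 1 testis, and Defb25 in 2 mutant ovaries and 2 wild-type ovaries.

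At P3 the comparison of KO with wild-type ovaries asked what differed shortly after birth without Foxl2, and 0 of 20 members passed. Of all genes 0.324% passed, so calls were rare in this fit of 2 KO and 2 wild-type pools. Values are MAS5 signals, and differences are on the scale of log2(signal + 16), which understates the change of dim genes. On that scale Defb19 (mean 11.59) and Defb42 (7.53) lay above the mean of the array medians and the other 18 members below it, so 2 of the 20 would pass a filter on low values. Defb19 was above that line in every pool, and Defb42 in the 2 KO pools and 1 of the 2 wild-type pools. Defb36, which rose in adult mutant ovaries, is among the 21 members with a value on the adult arrays alone.

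Defb19 was bright at P3 in both genotypes. Its signal was 2958.7 and 2892.9 in KO pools, against 3024 and 3449.4 in wild-type pools, where the array medians were 116.6 to 126.8. The KO pools lay just below both wild-type pools, and the difference was -0.14 ± 0.12 with a 95% interval from -0.44 to 0.15 (n = 2 and 2, limma adjusted p = 0.814). It was -0.24 without wild-type pool 1 and -0.05 without wild-type pool 2. The adult and P3 arrays are different designs with different normalization, so the levels of the 2 ages were not compared.

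Defb42, an epididymal defensin of the chromosome 14 group, had signals of 200.9 and 253.8 in KO pools, against 112.5 and 140.6 in wild-type pools. The groups did not overlap, but its difference of 0.77 ± 0.30 had a limma adjusted p of 0.485. The unused probe set listed with both Defb42 and 2700070H01Rik gave 27.7 and 28.5 in KO pools, against 18.6 and 34.7 in wild-type pools. Those values overlapped and lay below the array medians. On the adult arrays Defb42 lay at the low end, at 3.23, 2.99 and 2.55 in mutant ovaries, 2.49, 3.01 and 2.78 in testes, and 2.85 and 2.89 in wild-type ovaries.

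The largest fitted differences at P3 were in dim members of chromosome 8. Defb3, an inducible epithelial defensin, had signals of 40.4 and 60.2 in KO pools, against 5.6 and 5.2 in wild-type pools (1.62 ± 0.37, limma adjusted p = 0.183). Defb2 had signals of 48.0 and 35.3 in KO pools, against 7.4 and 7.3 in wild-type pools (1.30 ± 0.36, limma adjusted p = 0.278). Defb11 had signals of 14.9 and 18.3 in KO pools, against 59.4 and 62.2 in wild-type pools (-1.24 ± 0.35, limma adjusted p = 0.29). All these signals were below the lowest array median, and the size of the differences moved with the pseudocount. With a pseudocount of 1 that of Defb3 was 2.98 and that of Defb11 -1.82, and with 64 they were 0.71 and -0.63. The 18 low-end members ranged from 0.7 to 134.5 over the 4 arrays. An unadjusted p under 0.05 was reached by 4 of the 20 members, namely Defb2, Defb3, Defb11 and Defb42, where 9.53% of all genes reached it. KO pools lay wholly above wild-type pools in 4 members and wholly below in 2, where 19.2% and 19.7% of all genes did. The median difference was 0.10 over the members and -0.01 over all genes.

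**Figure D4:**
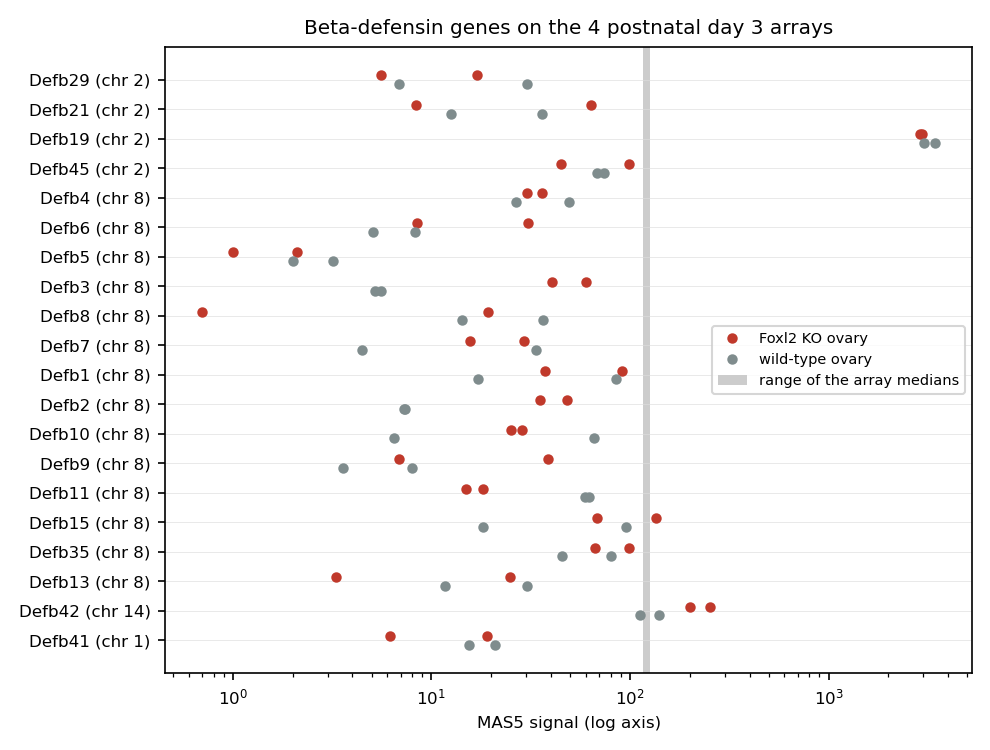
MAS5 signal (log axis) of the 20 β-defensin genes on each of the 4 P3 arrays, 1 point per array, with KO and wild-type pools marked and the array medians shown. Defb19 lies between 2892.9 and 3449.4 in both genotypes, and the other 19 members lie at or below 253.8.

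Sertoli cell markers at P3 had a mean level of 9.35 to 9.37 in KO pools, against 8.79 to 8.96 in wild-type pools, on the log2(signal + 16) scale, with sums of 140.3 to 140.6 against 131.9 to 134.5. Of the 15 genes 1 rose, where 0.137% of all genes did, namely the cystatin Cst9 (2.01 ± 0.18, limma adjusted p = 0.0207). The median of the 15 genes was 0.15. Of these genes 2 in KO pools and 3 in wild-type pools had means below the array medians. Their part in the values of Defb19 was not tested.

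Other antimicrobial genes were read beside the defensins. Of 23 measured on the adult arrays 2 rose and 0 fell in mutant against wild-type ovaries, with a median of 0.06. Of all genes 9.55% rose and 6.66% fell there. Lcn2, the iron-sequestering lipocalin, had levels of 10.45, 9.61 and 11.65 in mutant ovaries, 10.89, 10.63 and 10.95 in testes, and 6.29 and 4.86 in wild-type ovaries. It rose in mutant ovaries, by 5.0 ± 0.52 (limma adjusted p = 1.15e-04), and no mutant ovary overlapped the wild-type ovaries. Tlr4, the receptor for bacterial lipopolysaccharide, rose by 1.00 ± 0.23 (limma adjusted p = 0.0158). In testis 2 of the 23 were higher than in wild-type ovary, Lcn2 by 5.25 ± 0.52 and the lipopolysaccharide-binding Bpi by 4.70 ± 0.20, and 8 were lower, with a median of -0.22. Of all genes 24.4% were higher and 35.9% lower in testis. Between mutant ovary and testis 10 of the 23 were higher and 1, Bpi, was lower, where 37.5% of all genes were higher and 24.3% lower. At P3 0 of 19 passed, where 0.324% of all genes did. Of the related α-defensins 0 of 2 passed between mutant and wild-type ovaries and 0 of 3 at P3. Defa39 was lower in testis than in wild-type ovary (-0.37 ± 0.14, limma adjusted p = 0.0414) and higher in mutant ovary than in testis (0.36 ± 0.13, limma adjusted p = 0.0271), and Defa24 passed in neither.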

How the data were processed

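Whole-organ RNA of 8 adult and 4 P3 samples was measured on arrays. Adult values are log2 levels that the authors deposited after RMA in Affymetrix Expression Console, and P3 values are MAS5 signal intensities deposited on a linear scale, per the submitters' processing notes. Program versions were not given in the sources used here, and the labels describe the P3 labelling by a protocol of another array type. Arrays give no counts, so the number of arrays limits precision.

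Probe sets with 1 gene in the platform annotation were kept (21789 of 35557 adult, 34958 of 45101 P3), with symbols updated by gene identifier, and 1 probe set per gene was taken by highest mean. Groups came from the labels. limma 3.58.1 (R 4.3.3) with an intensity trend was fitted to all genes, on 3 adult group means together and on log2(signal + 16) at P3, with two-sided tests, Benjamini-Hochberg adjustment over all genes and a threshold of 0.05. The procedure was tested on simulated data. The tables were never tested against each other. Levels on single arrays were given for Defb19, Defb36 and members above the array medians. Members past the threshold have them for a comparison that they passed. For other members the extremes were given. The family and its rule, and the gene lists (Sertoli cell, epididymis, spermatid, innate antimicrobial, α-defensin, granulosa cell, oviduct, leukocyte, surface epithelium, oocyte), were chosen with earlier results of these data known. Alternatives covered pseudocounts, filters, quantile scaling, probe set choice, a replicate block and each array left out.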

Additional observations from a re-analysis of the deposited data

Results flagged for a closer look

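Defb19 and Defb6 had fitted differences of opposite sign at the 2 ages, with every mutant or KO array on one side of every wild-type array at each age. Defb19 was at 3.45 in adult mutant against wild-type ovaries and at -0.14 in P3 KO against wild-type pools. Defb6, at the low end of both tables, was at -0.19 in adult mutant against wild-type ovaries and at 0.58 in P3 KO against wild-type pools. At P3 the Defb6 pools closest to each other were at signals of 8.5 in KO and 8.3 in wild type, both below the array medians. The P3 difference of Defb19 was -0.24 without wild-type pool 1 and -0.05 without wild-type pool 2. Of all genes 19.3% lay wholly above and 20.6% wholly below in adult mutant ovaries, and 19.2% and 19.7% in P3 KO pools. Of the 4 differences of Defb19 and Defb6 only that of adult Defb19 passed the threshold. The difference between ages was not tested, since the tables come from different arrays with different normalization.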

How the results depend on the processing

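Between mutant and wild-type ovaries 2 members passed under all 15 alternatives, with Defb19 between 3.08 and 3.83 and Defb36 between 3.78 and 4.11. Between testis and wild-type ovary 12 members passed, 2 when only genes with a mean above the array medians were tested (2 members remain there), 4 with a 2-fold difference required, and 8 to 12 with single arrays left out. Between mutant ovary and testis 12 passed, against 2 and 4 under the same settings 10 to 14 with single arrays left out, and 16 (8 higher and 8 lower) with quantile scaling. At P3 0 passed under all 12 alternatives. Over the named members' 430 alternative values 383 kept direction and call, 47 kept direction and lost the call, and 0 reversed. The lost calls include differences that kept an adjusted p below 0.05 and fell short only of the required 2-fold. Besides Defb19 and Defb36, these members were picked as past the threshold in the main fit, above the array medians, or with the largest or smallest difference. Those already past the threshold could not newly pass, and these counts do not cover the other members. With the replicate number as a block 2, 8, 12 and 0 members passed in the 4 comparisons, in the order above. Same-numbered arrays gave correlations of deviations from -0.003 to 0.079 in adults and 0.04 at P3. Differently numbered arrays gave -0.068 to 0.067 in adults and -0.04 at P3. Between testes and mutant ovaries same-numbered arrays gave 0.058 to 0.079, and the others -0.06 to -0.002. In groups of 2 arrays the deviations mirror each other, so such values cannot show pairing. The labels state no pairing and the numbers were not taken to pair samples, but pairing was not excluded. Over all genes 3232 passed between mutant and wild-type ovaries, against 1731 with only these groups in the fit and 1119 with 2-fold required. The 2-fold rule also gave 6909 in place of 12028 for testis against wild-type ovary and 7181 in place of 12328 for mutant ovary against testis. At P3 the 59 genes became 90 with a pseudocount of 1, 22 with probe sets averaged, 222 above the array medians, 0 without an intensity trend, 300 with the block, 21 without wild-type pool 1, 5 without wild-type pool 2, and 0 without KO pool 1 or KO pool 2. Quantile scaling moved the share of calls that were higher in mutant than wild-type ovaries to 49.9%, against 58.9%. Causes of these shifts were not tested, beyond the fewer genes or arrays used. By mean level 37 of 39 adult and 18 of 20 P3 members lay below the array medians.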

Other observations

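Other lists were read in the same fits. Of all genes 9.55% rose and 6.66% fell in mutant against wild-type ovaries. In testis against wild-type ovary 24.4% were higher and 35.9% lower, and at P3 0.324% passed. Of 11 granulosa cell genes 2 rose and 7 fell in mutant against wild-type ovaries, 0 were higher and 10 lower in testis than in wild-type ovary, and 3 fell at P3. Of 10 oocyte genes 0 passed in mutant against wild-type ovaries, with a median of 0.52 and a list mean of 7.0 to 7.20 in mutant ovaries, against 5.72 to 7.40 in wild-type ovaries. Of these genes 9 were lower in testis and 2 fell at P3. Of 12 leukocyte and neutrophil genes 2 rose in mutant ovaries, 5 were lower in testis and 0 passed at P3. Of 7 surface epithelium genes 1 rose in mutant ovaries, 7 were lower in testis and 0 passed at P3. Of 4 oviduct genes 0 passed in mutant ovaries and 2 were higher and 1 lower in testis, and 0 of 5 passed at P3. Of 10 spermatid genes 0 passed in mutant ovaries or at P3, and 0 of 7 epididymis genes passed at P3.

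Genes whose levels ran most like Defb19 over the 8 adult arrays were Slc41a2 (Pearson r 0.998), Etv5 (0.995), Lonrf3 (0.994), Cerk (0.994) and Fyb2 (0.994). Those most like Defb36 were Cdh23 (0.997), Clec12b (0.996), Cerk (0.995), Slc52a3 (0.994) and Btnl10 (0.994). Defb36 ranked at place 31 of 19937 genes for Defb19 (0.98), and Defb19 at place 32 for Defb36. The arrays fall into 3 groups, so these values describe group differences as much as single arrays.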
